A study of Mus musculus with 1024 samples.

Results

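The platelet-derived growth factor (PDGF) family was followed through single cells of the mouse aorta as 6 genes of the 24422 in the count table, namely the ligand genes Pdgfa, Pdgfb, Pdgfc and Pdgfd and the receptor genes Pdgfra and Pdgfrb. They were chosen by family membership and not by their values, though with earlier results of these data known. All 6 were in the table. Aortae came from mice of 3 months, either WT or lacking endothelial amotl2 (ec-/ec-, here KO). Their cells were depleted of Cd45+ cells, sorted as Cd31+Cd45- (endothelial gate) or Cd31-Cd45- (the rest of the wall) into plates, and read with Smart-seq2, which amplifies full-length cDNA of each sorted cell without molecular identifiers. In the KO mice, floxed amotl2 is removed by the tamoxifen-induced Cdh5(PAC)CreERT2 driver, which is active in endothelium, and a ROSA26-EYFP allele marks cells in which Cre has acted. The labels give WT and KO wells the same strain (floxed amotl2, Cdh5-driven Cre, ROSA26-EYFP), so what sets the WT mice apart, and whether they received tamoxifen, is not stated for these wells. The background is C57BL/6 with both sexes, and 6 mice per genotype were used in 2 independent sorts (preparations 1 and 2), which are the replicates and whose single mice the labels do not name.

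PDGFs are secreted dimers. PDGF-A and PDGF-B leave the cell in active form, while PDGF-C and PDGF-D are latent until a protease removes their CUB domain. PDGF receptor alpha binds the A, B and C chains and marks fibroblasts and other mesenchymal cells, and PDGF receptor beta, bound by the B and D chains, marks mural cells. In developing vessels, PDGF-B from endothelium recruits mural cells that carry receptor beta.

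Of 1024 wells, 784 had 20000 or more gene counts and 500 or more detected genes and were kept. Per preparation (1, then 2) they were 235 and 50 WT Cd31+ wells, 302 and 89 KO Cd31+ wells, 42 and 12 WT Cd31- wells, and 40 and 14 KO Cd31- wells. Counts were summed over the wells of each genotype, gate and preparation, which gave 8 samples of 926398 to 94881185 counts, and levels are CPM, the counts of a gene per 1000000 counts of its sum. EYFP was seen in 1.70% and 4.0% of the WT Cd31+ wells, in 76.5% and 85.4% of the KO Cd31+ wells and in no Cd31- well. Amotl2 was 59.9 and 94.0 CPM in WT Cd31+ samples and 51.9 and 45.7 CPM in KO, a log2 difference of -0.66 ± 0.32 (SE) with an adjusted p of 1.00 in edgeR, and counts per gene do not resolve the deleted exon. The gates held what their names say: the 10 endothelial markers summed to 14408 to 17022 CPM in Cd31+ samples and 24.8 to 1233 CPM in Cd31- samples, and the 10 smooth muscle markers to 778 to 1762 and 21877 to 55303 CPM. The leukocyte list stayed at or below 3.26 CPM in every sample.

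Clustering without the 6 PDGF genes gave 660 endothelial-like wells, 85 smooth muscle-like wells and 39 fibroblast-like wells, named from marker genes. The fibroblast-like wells came almost wholly from preparation 1, 26 from WT and 11 from KO, with 1 well per genotype in preparation 2. So Cd31- samples differed in their mix of smooth muscle-like and fibroblast-like wells, and in summed samples fewer cells of a type and less RNA per cell cannot be told apart.

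Between the gates, both receptors were higher in Cd31- than in Cd31+ samples, while none of the 4 ligands passed the test in either direction. With edgeR's quasi-likelihood test over 4 samples against 4, 2 of the 6 genes were called, where 19.1% of the 11579 genes tested were called and 9.55% were called higher in Cd31-. The 2 receptors were also the only PDGF genes whose Cd31- and Cd31+ samples did not overlap, against 26.8% of all genes tested. Of the ligands, 2 had an unadjusted p under 0.05 (Pdgfa and Pdgfc), and DESeq2 called 1, Pdgfc. Whether ligands and receptors differ from each other in this was not tested.

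**Figure D1:**
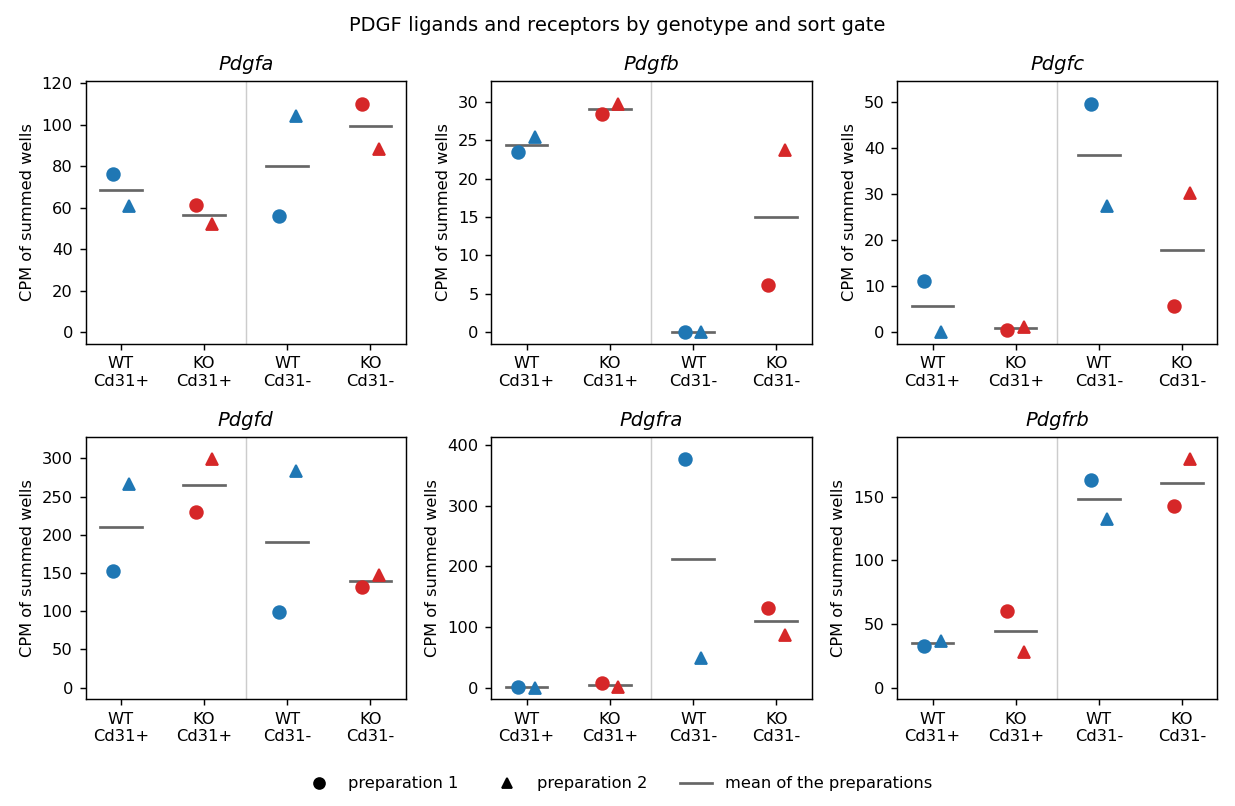
Level of each PDGF gene in CPM (y axis, each panel on its own scale) in the WT (blue) and KO (red) samples of each gate, with circles for preparation 1, triangles for preparation 2 and bars for their mean. Pdgfrb runs from 28.2 to 60.1 CPM in Cd31+ samples and from 133 to 179 CPM in Cd31- samples, whereas the Pdgfa and Pdgfd points of the gates interleave.

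Pdgfd, which signals through receptor beta, was the highest ligand per kilobase of exon in all 8 samples. It read 153 and 267 CPM in WT Cd31+, 231 and 299 in KO Cd31+, 98.9 and 283 in WT Cd31-, and 132 and 147 CPM in KO Cd31- samples. The gates overlapped, with a log2 difference of Cd31- from Cd31+ of -0.39 ± 0.35 (SE, adjusted p = 0.533), and preparation 2 was the higher in all 4 pairs of samples. A Pdgfd count was found in 73.4% of Cd31+ wells (95% exact interval 69.9 to 76.7) and in 75.9% of Cd31- wells (66.7 to 83.6).

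Pdgfa, the chain that acts on receptor alpha alone, read 76.3 and 60.8 CPM in WT Cd31+, 61.5 and 51.9 in KO Cd31+, 56.2 and 104 in WT Cd31-, and 110 and 88.5 CPM in KO Cd31- samples. All Cd31- samples but WT preparation 1 lay above every Cd31+ sample, and the log2 difference of 0.66 ± 0.28 (SE) had an adjusted p of 0.141. Without that sample it was 0.83 with an adjusted p of 0.0348, and it was the sample with the most fibroblast-like wells, a class in which Pdgfa was low. The part of this mix in the difference was not tested.

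Pdgfb, the mural cell-recruiting ligand, was steady in the endothelial gate, at 23.4 and 25.4 CPM in WT and 28.4 and 29.7 CPM in KO. In the Cd31- gate it had 0 counts in both WT samples and read 6.15 and 23.7 CPM in KO. The KO Cd31- value of preparation 2 lay inside the Cd31+ range, and the gate difference of -1.81 ± 1.18 (log2, SE) did not pass (adjusted p = 0.360). It passed when wells were thinned to 20000 counts each (-2.53, adjusted p = 0.0251) or averaged as log2(CPM + 1) over wells (-1.24, adjusted p = 0.00592).

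Pdgfc was almost absent from the endothelial gate except in WT preparation 1. It read 11.2 and 0.088 CPM in WT Cd31+, 0.548 and 1.18 in KO Cd31+, 49.6 and 27.3 in WT Cd31-, and 5.62 and 30.2 CPM in KO Cd31- samples. A single well held 44.6% of the 448 Pdgfc counts of the WT Cd31+ sample of preparation 1, which overlapped the lowest Cd31- sample. The gate difference was 3.21 ± 1.21 (log2, SE) with an adjusted p of 0.0976. It passed with the preparation of each genotype as a block (4.30, adjusted p = 0.0248), with DESeq2 (3.26, adjusted p = 0.0171) and without the WT Cd31+ sample of preparation 1 (5.69, adjusted p = 0.00740). Over 16 alternatives its adjusted p ran from 5.56e-04 to 0.302.

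Among the receptors, Pdgfra showed the larger gate difference. It was 1.25 and 0.176 CPM in WT Cd31+, 7.47 and 1.53 in KO Cd31+, 376 and 48.6 in WT Cd31-, and 132 and 86.4 CPM in KO Cd31- samples. Every Cd31- sample exceeded every Cd31+ sample, with a log2 difference of 6.04 ± 1.02 (SE, adjusted p = 0.00187). Within the Cd31- gate the samples of preparation 1, which held most fibroblast-like wells, were the higher ones. A single well held 97.5% of the Pdgfra counts of the KO Cd31- sample of preparation 2.

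Pdgfrb, the receptor for PDGF-B and PDGF-D, was 32.6 and 36.9 CPM in WT Cd31+, 60.1 and 28.2 in KO Cd31+, 163 and 133 in WT Cd31-, and 143 and 179 CPM in KO Cd31- samples. The log2 difference was 2.13 ± 0.28 (SE, adjusted p = 4.21e-04), and the preparations alone gave 1.93 and 2.39. The groups did not overlap, and a single well held 45.9% of the Pdgfrb counts of the WT Cd31- sample of preparation 1. Both receptor calls held in all 16 alternatives.

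**Figure D2:**
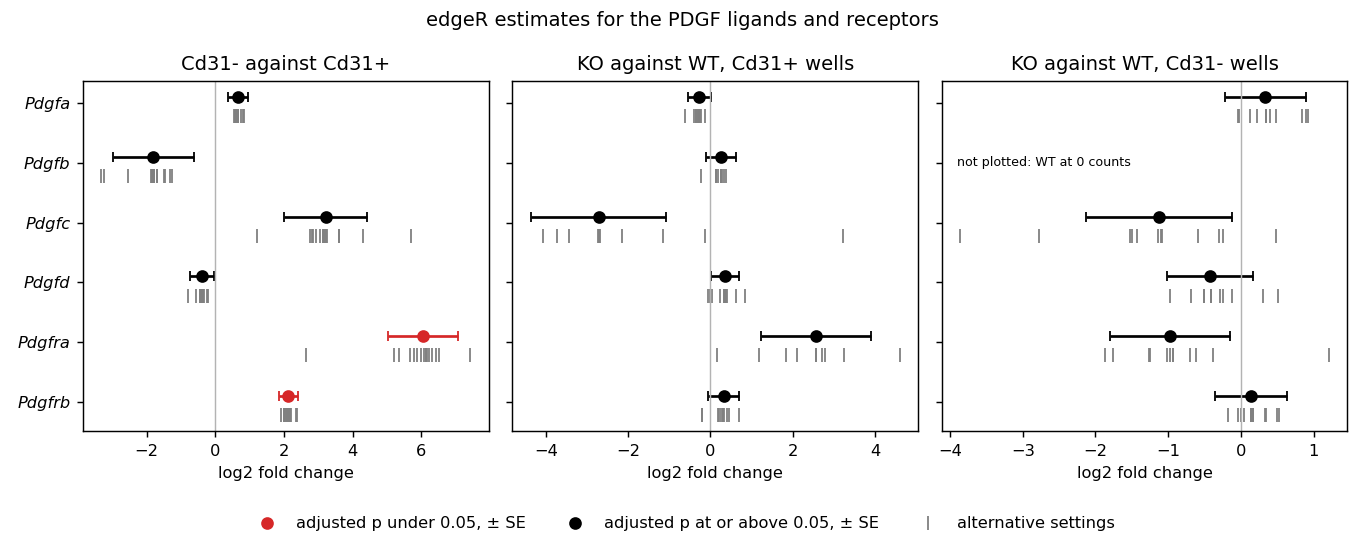
Estimates of edgeR on the log2 scale (x axis, dots ± SE) for each PDGF gene in 3 comparisons, red where the adjusted p is under 0.05, with grey ticks for the alternative settings that carry a test. Only Pdgfra (6.04) and Pdgfrb (2.13) are red, both for Cd31- against Cd31+, and Pdgfb is left out of the Cd31- panel because WT had 0 counts.

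Levels were next compared between the PDGF genes within each rebuilt class. For this, CPM were divided by the exon length in kilobases from GENCODE M21 (GRCm38), which was 3.12 for Pdgfa (chromosome 5, 138976014 to 138997370, minus strand), 4.16 for Pdgfb (chromosome 15, 79995874 to 80014977, minus strand), 5.09 for Pdgfc (chromosome 3, 81036416 to 81214040, plus strand), 3.15 for Pdgfd (chromosome 9, 6168584 to 6378850, plus strand), 10.02 for Pdgfra (chromosome 5, 75152292 to 75198215, plus strand) and 5.48 for Pdgfrb. Exons of 3 other annotated genes overlap those of Pdgfra, and exons of 1 other gene each those of Pdgfa and Pdgfc. Only 1 of them, at Pdgfra, is in the count table, and the genes at Pdgfa and Pdgfc are not. Reads shared with a counted gene may have been left uncounted. Class values in CPM per kilobase below are means over the genotype and preparation sums with at least 5 wells.

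In endothelial-like wells the order per length was led by ligands. Pdgfd stood at 75.4 ± 19.9 CPM per kilobase (SD, n = 4), Pdgfa at 20.03 ± 3.48, Pdgfrb at 6.99 ± 2.81, Pdgfb at 6.50 ± 0.690, Pdgfc at 0.493 ± 0.968 and Pdgfra at 0.201 ± 0.210. Samples of Pdgfd, Pdgfa and the pair Pdgfrb and Pdgfb did not overlap from step to step, whereas Pdgfrb overlapped Pdgfb and Pdgfc overlapped Pdgfra. Pdgfb, the ligand best known from endothelium, was thus below Pdgfd and Pdgfa per length in each of the 4 sums.

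Smooth muscle-like wells held ligands and receptor beta together. Pdgfd stood at 61.7 ± 23.3 CPM per kilobase (SD, n = 4), Pdgfa at 36.4 ± 5.08, Pdgfrb at 24.7 ± 6.66, Pdgfc at 7.75 ± 5.49, Pdgfb at 2.16 ± 2.68 and Pdgfra at 0.883 ± 0.946. Pdgfd did not overlap Pdgfa, and Pdgfrb did not overlap Pdgfc, while the neighbours Pdgfa and Pdgfrb, Pdgfc and Pdgfb, and Pdgfb and Pdgfra overlapped. Pdgfc had a count in 18.9% to 45.5% of the wells of each sum, against 0% to 3.06% in endothelial-like sums.

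Fibroblast-like wells were the only class led by a receptor. In the 2 sums of preparation 1, WT and then KO, Pdgfra read 59.7 and 55.1 CPM per kilobase, Pdgfrb 38.2 and 33.9, and Pdgfd 21.5 and 23.9. Pdgfa read 1.00 and 6.76, Pdgfc 5.81 and 0.153, and Pdgfb had no count in any of the 39 wells, which allows a share of up to 7.69%. All 39 wells held Pdgfra counts, against 3.79% of endothelial-like and 16.5% of smooth muscle-like wells. Of the WT Pdgfrb counts, 56.9% came from a single well.

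**Figure D3:**
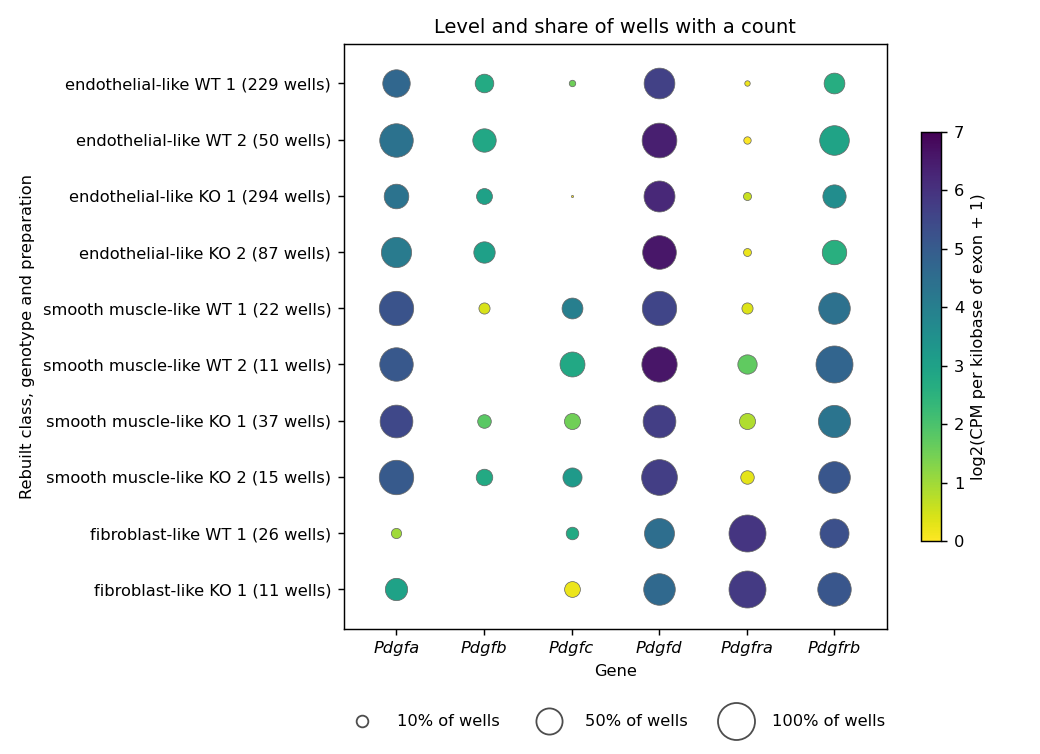
Each PDGF gene (x axis) in each class, genotype and preparation with at least 5 wells (y axis), with dot area for the share of wells with a count and colour for log2(CPM per kilobase of exon + 1). Pdgfra fills all wells of the fibroblast-like rows and few elsewhere, Pdgfd is dark in endothelial-like and smooth muscle-like rows, and Pdgfb has no dot in fibroblast-like rows.

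Ligand and receptor counts often stood in the same well. Of the 85 smooth muscle-like wells, 68.2% held both Pdgfd and Pdgfrb and 65.9% both Pdgfa and Pdgfrb, and all 10 wells with Pdgfb also held Pdgfrb. Taken singly, Pdgfd was in 84.7%, Pdgfa in 82.4% and Pdgfrb in 77.6% of these wells. All 39 fibroblast-like wells held Pdgfra, so the 66.7% with Pdgfd and the 27 wells with Pdgfrb held it by necessity. Of the 660 endothelial-like wells, 32.6% held both Pdgfd and Pdgfrb and 12.3% both Pdgfb and Pdgfrb. Singly, Pdgfd was in 72.7%, Pdgfb in 24.4% and Pdgfrb in 39.1% of them. Whether genes met in a well more often than their single shares give was not tested. At least 1 ligand was seen in 554 of the 660 endothelial-like, 82 of the 85 smooth muscle-like and 31 of the 39 fibroblast-like wells. Such shares are lower in shallow wells, since a gene missed there cannot be paired.

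Pdgfrb in endothelial-like wells was examined against the genes of the other classes, since it is known as a mural gene. It had a count in 39.1% of these wells (95% exact interval 35.3 to 42.9) and in 24.7% after thinning to 20000 counts. By sum, the share was 31.4% and 64.0% in WT and 39.5% and 43.7% in KO. Several other genes of smooth muscle and mural cells were rarer there. Myh11, smooth muscle myosin, was in 3.33%, Cnn1, calponin, in 2.27%, and the mural genes Cspg4, Rgs5 and Notch3 in 1.06% each. These mural genes come from a list of 8 pericyte genes, whose other members were not read by well. The whole list summed to 132 to 209 CPM in Cd31+ samples and 1934 to 2851 CPM in Cd31- samples. In endothelial-like wells Rgs5 read 15.1, Cspg4 1.74 and Notch3 0.630 CPM, so these genes need not stand for the list. Acta2, smooth muscle actin, and Dcn, decorin, which read 30721 CPM in smooth muscle-like and 29545 CPM in fibroblast-like wells, were in 31.4% and 22.3% of endothelial-like wells. After the same thinning, Acta2 was in 25.6%, Dcn in 18.5%, Myh11 in 1.06% and Cnn1 in 0.909% of them.

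For levels relative to another class, all wells of a class were pooled. KO preparation 1 gave 92115782 of the 150735622 endothelial-like counts. Set against the smooth muscle-like level, endothelial-like wells held 43.1% of the Pdgfrb CPM and 1.22% of the Acta2 CPM. They held 1.75% of the Notch3 CPM, 1.04% of the Rgs5 CPM and 0.159% of the Myh11 CPM. By sum, the Pdgfrb percentage was 25.7 and 25.8 in WT and 58.3 and 14.8 in KO. The pooled 43.1% thus lay above every sum but KO preparation 1. Against the fibroblast-like level the pooled percentage was 24.7 for Pdgfrb, 0.603 for Pdgfra and 0.323 for Dcn. In the 489 endothelial-like Cd31+ wells with no count of Myh11, Cnn1, Dcn or Lum, Pdgfrb was in 35.4% of wells at 46.7 CPM. In all endothelial-like wells it read 48.6 CPM. That choice of wells did not set aside those with Acta2, and the source of the Pdgfrb counts was not tested.

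**Figure D4:**
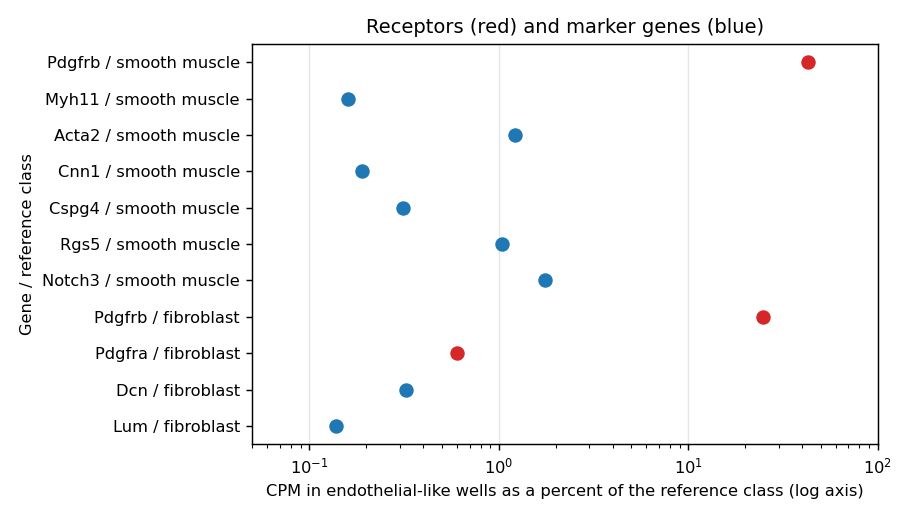
CPM in endothelial-like wells as a percent of the CPM in the class that marks each gene (x axis, log scale), for the PDGF receptors in red and marker genes in blue (y axis). All wells of a class are pooled, whatever their genotype and preparation. Pdgfrb lies at 43.1% of the smooth muscle-like and 24.7% of the fibroblast-like level, and every other gene plotted lies at or below 1.75%. Tagln, Myl9 and the other genes of the pericyte list are not plotted. The mural genes plotted were added after their values were seen.

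Endothelial-like wells with Pdgfrb were deeper, with a median of 201624 counts against 141158 in those without. Acta2 was in 41.5% of the 258 Cd31+ wells with Pdgfrb and 24.7% of the 401 without, and Tagln, another contractile gene, in 40.3% and 22.4%. Myh11 was in 4.26% and 2.74% of wells at 15.6 and 0.752 CPM, and Cnn1 in 3.49% and 1.496% at 10.8 and 0.382 CPM. Over all endothelial-like wells, a single well gave 50.6% of the Myh11 and 64.4% of the Cnn1 counts, so these CPM rest on few wells. The myosin light chain gene Myl9 was in 14.3% and 6.98% at 55.1 and 8.81 CPM. Cdh5, VE-cadherin, was in 98.1% and 93.8%. The part of depth in these differences was not tested.

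The endothelial-like wells formed 5 clusters, and the PDGF genes, left out of the clustering, varied among them. Pdgfd was in 71.7% to 82.5% of wells in 4 clusters but in 15.2% of the 33 wells of the cluster led by Lrg1 and Aqp1. The leading genes of that cluster also held Ackr1, a venous marker, Mmrn1, a lymphatic marker, and Cd36 and Kdr. No vessel type was assigned to it. There Pdgfa was in 12.1% of wells and Pdgfb in 18.2%, while Pdgfrb and Pdgfra were in none (a share of up to 9.09% is allowed). Acta2 was also low there, in 9.09% of wells against 13.04% to 40.2% in the other 4 clusters, and the median depth was 118017 counts. In the 2 sums of this cluster with at least 5 wells, Pdgfd read 4.78 (WT) and 3.47 CPM (KO). Pdgfa read 7.47 and 4.86 CPM and Pdgfb 15.5 and 24.3 CPM. These levels rest on few wells, for Pdgfd on 1 and for Pdgfa on 2 in each sum. For Pdgfb they rest on 3 WT wells and 1 KO well. The wells came mainly from preparation 1, 19 from WT and 11 from KO.

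Pdgfc in endothelial-like wells was confined to 8 wells, of which 5 were in the Lrg1 and Aqp1 cluster and 3 in the 23 wells of the cluster led by Slc6a6 and Ssu2. All 5 of the former were WT wells of preparation 1, where Pdgfc read 108 CPM, and a single well gave 55.6% of the counts. In the Slc6a6 and Ssu2 cluster Pdgfb was at its highest, in 56.5% of wells at 103 CPM, with 45.9 CPM in the WT and 129 CPM in the KO sum of preparation 1. A single well gave 44.2% of these Pdgfb counts.

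The CPM of Pdgfb also differed between the 2 largest clusters, while its shares of wells overlapped. In the cluster led by Nt5e and Gkn3 (206 wells) it read 33.4 and 28.4 CPM in WT and 38.5 and 36.1 in KO, and in the cluster led by Slc26a4 and Aldh3a1 (244 wells) 2.89 and 19.5 in WT and 17.1 and 17.1 in KO. The sums of the Nt5e and Gkn3 cluster were all higher, though a single well gave 50.3% of the counts behind its WT value of preparation 1 and 64.0% of those behind the WT value of preparation 2 in the other cluster. Pdgfrb overlapped between them, at 53.0, 41.6, 55.3 and 25.8 against 40.9, 34.6, 60.7 and 30.3 CPM in the same order. The cluster led by Cd74 and H2-Ab1, 152 of whose 154 wells were WT wells of preparation 1, held Pdgfa at 90.6, Pdgfb at 23.6, Pdgfd at 141 and Pdgfrb at 27.9 CPM in those wells. Clusters were found in the same cells, so these are descriptions with no test.

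**Figure D5:**
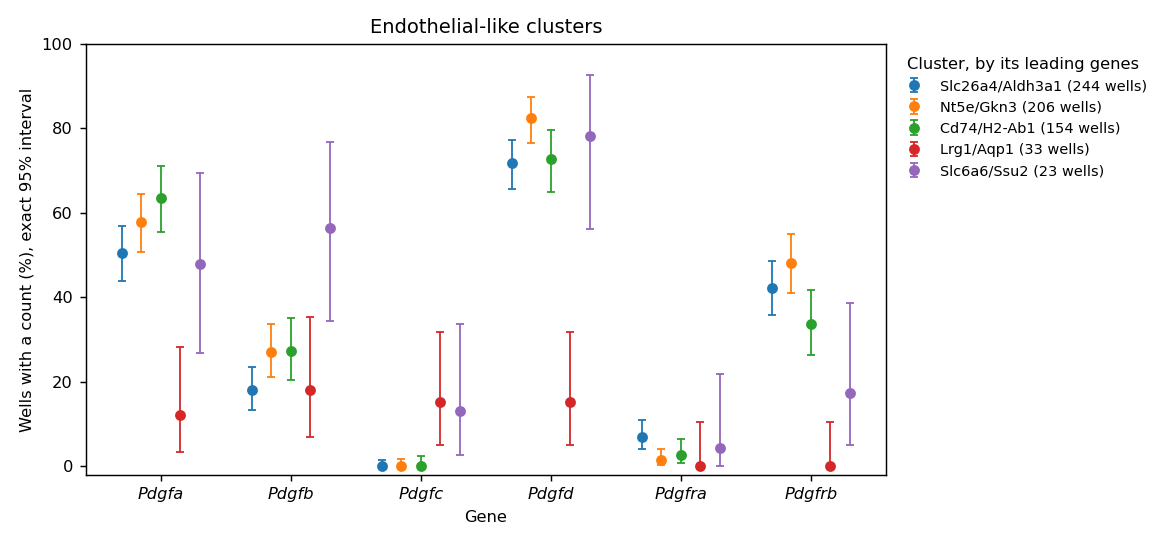
Share of wells with a count in percent (y axis, bars for the exact 95% interval, counting error only) for each PDGF gene (x axis) in the 5 endothelial-like clusters, coloured and named by leading genes. The Lrg1/Aqp1 cluster sits at 15.2% for Pdgfd and 0% for Pdgfrb, and the Slc6a6/Ssu2 cluster at 56.5% for Pdgfb.

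Loss of amotl2 in endothelium was then compared between KO and WT in each gate. In Cd31+ wells, no PDGF gene was called. edgeR called 0% of 12702 genes, with 468 at an unadjusted p under 0.05, 55 called by DESeq2 and 1 with the preparation as a block. No PDGF gene had an unadjusted p under 0.05 in edgeR (adjusted p = 1.00 for each) or was called in any of the 12 alternatives in which it was tested, which with thinned wells left out Pdgfc and Pdgfra. Among the ligands, the log2 difference of KO from WT was -0.27 ± 0.28 (SE) for Pdgfa, 0.26 ± 0.37 for Pdgfb, 0.35 ± 0.34 for Pdgfd and -2.72 ± 1.64 for Pdgfc. Among the receptors it was 0.33 ± 0.37 for Pdgfrb and 2.57 ± 1.34 for Pdgfra, whose KO levels of 7.47 and 1.53 CPM were themselves low. KO and WT samples did not overlap for 2 of the 6 genes, Pdgfb and Pdgfra, both higher in KO, against 29.5% of all genes tested.

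Pairs within a preparation matched in sign for 4 of the 6 genes. For Pdgfa the differences were -0.38 and -0.14, for Pdgfb 0.21 and 0.31, for Pdgfd 0.52 and 0.25, and for Pdgfra 2.46 and 2.89. For Pdgfc they were -4.30 and 3.24 and for Pdgfrb 0.81 and -0.30, so the preparations went opposite ways. In preparation 1 WT and KO were sorted on separate plates, where plate and genotype cannot be told apart, and in preparation 2 they shared a plate. With endothelial-like wells alone, none of the 5 PDGF genes tested was called, and Pdgfc was not tested.

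In Cd31- wells, where EYFP was not seen, no PDGF gene was called either. edgeR called 0% of 10544 genes, with 275 at an unadjusted p under 0.05 and 6 called by DESeq2. The log2 difference was 0.34 ± 0.56 (SE) for Pdgfa, -1.13 ± 1.01 for Pdgfc, -0.42 ± 0.59 for Pdgfd, -0.97 ± 0.83 for Pdgfra and 0.14 ± 0.50 for Pdgfrb. WT preparation 1 set the sign for Pdgfra, which read 1.21 without that sample. Groups did not overlap for 1 of the 6 genes, Pdgfb, against 28.7% of all genes tested.

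Pdgfb in the Cd31- gate rested on few wells. It had 80 counts in 5 of 54 KO wells and 0 counts in 54 WT wells, where 0 allows a share of up to 5.56%. The KO levels of 6.15 and 23.7 CPM were 13.6 and 7.82 times a floor of 3 counts per WT library (0.452 and 3.04 CPM) in preparations 1 and 2. These ratios set no lower bound, since the counts sat in few wells. By well, 0 allows shares of up to 7.14% and 25% in WT, above the 5.0% and 21.4% seen in KO. A single well held 57 of the 58 counts of KO preparation 1, and the 5 wells together held 0 counts of Cdh5 and 0 of Pecam1. The edgeR test gave an unadjusted p of 0.0111 and an adjusted p of 1.00. Among smooth muscle-like wells of either gate, WT had Pdgfb in 2 of 22 and 0 of 11 wells of preparations 1 and 2, and KO in 5 of 37 and 3 of 15.

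The difference of the KO effect between the gates was tested in a single model of all 8 samples. edgeR called 0% of 12729 genes, with 657 at an unadjusted p under 0.05 and 50 called by DESeq2. Of the PDGF genes, Pdgfb had an unadjusted p of 0.00162 and Pdgfra of 0.0463, both with an adjusted p of 0.955. Pdgfb was called by DESeq2 (adjusted p = 0.0312) and, without the filter on low counts, by edgeR (adjusted p = 0.00456), as was Pdgfra there (adjusted p = 0.00219, log2 difference -3.47). WT Cd31- samples at 0 counts leave the size for Pdgfb undefined.

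Genes around the PDGF pathway were read from lists. Of 14 tested genes that process or bind the ligands, 4 were higher and 3 lower in Cd31- samples, where 19.1% of all genes tested were called and 9.55% were higher, with a median log2 difference of 0.67 against -0.04 over all genes. Lrp1, a co-receptor that binds PDGF receptor beta, was 45.8 CPM on average in Cd31+ samples and 417 to 1607 CPM in Cd31- samples, highest in WT preparation 1 (log2 4.2 ± 0.50 SE, adjusted p = 2.39e-04). Sparc, a matrix protein that binds PDGF-B, was 1327 and 3856 CPM (1.67 ± 0.32, adjusted p = 0.00375). Nrp1, a co-receptor, was lower, at 1245 and 215 CPM (-2.39 ± 0.34, adjusted p = 6.77e-04). Plaur, the urokinase receptor, and St14, the protease matriptase, were also lower (-1.90 ± 0.53 and -5.34 ± 1.37, adjusted p = 0.0284 and 0.0183). Plaur was called in 10 of 16 alternatives and St14 in 12 of 14. St14 was low, at 1.59 to 10.2 CPM in Cd31+ samples. In Cd31- samples it read 0.301 CPM in WT preparation 1 and 0 in the rest, which leaves its size poorly defined. Ndst1, a heparan sulfate-modifying enzyme, was also called higher in Cd31-.

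Of 30 tested signalling genes, 1 was higher and 5 were lower in Cd31- samples, with a median of -0.28. That count is near the 19.1% of all genes called, so it is no result about the list. Pik3r1, the regulatory subunit of PI3-kinase that binds the receptors, was 21.9 and 122 CPM (2.62 ± 0.40, adjusted p = 0.00106). Those lower were the kinase Fyn (-2.63 ± 0.62), the adaptor Nck1 (-1.99 ± 0.24), the MAP kinase Mapk3 (-1.90 ± 0.40), the GTPase Nras (-1.32 ± 0.25) and the transcription factor Stat3 (-1.28 ± 0.31), with adjusted p from 2.39e-04 to 0.0147. Without the WT Cd31+ sample of preparation 1, Fyn was not called (adjusted p = 0.0594), and Nras was not called in wells of at least 100000 counts (adjusted p = 0.0838).

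Of 13 tested genes that dampen receptor signalling, 3 were higher and 2 lower in Cd31- samples, against 19.1% of all genes called and 9.55% higher, with a median of -0.17. Spry1, a feedback inhibitor, was 0.496 CPM on average in Cd31+ samples and 4.05 to 34.7 CPM in Cd31- samples, highest in WT preparation 1 (5.03 ± 1.14, adjusted p = 0.00946). Socs3, a cytokine signalling suppressor, was 24.4 CPM on average in Cd31+ samples, 507 CPM in KO Cd31- preparation 1 and 50.6 to 109 CPM in the other 3 Cd31- samples (3.09 ± 0.69, adjusted p = 0.00908). Cblb, a ubiquitin ligase, averaged 4.26 and 24.6 CPM (2.68 ± 0.55, adjusted p = 0.00547). Lower were Ptprj, a receptor phosphatase, at 293 and 20.5 CPM (-3.75 ± 0.49, adjusted p = 4.06e-04), and Cav1, caveolin, at 5048 and 1752 CPM (-1.38 ± 0.32, adjusted p = 0.0114). Cblb was not called in wells of at least 100000 counts (adjusted p = 0.0510). Of the related class III receptors and their ligands, 4 of 7 were tested and 0 were called by edgeR, with 1 at an unadjusted p under 0.05 and 1 called by DESeq2. In the KO comparisons none of these lists had a called gene in either gate by edgeR or DESeq2, with at most 1 gene per list and gate at an unadjusted p under 0.05 in edgeR and 2 in DESeq2. Without the WT Cd31+ sample of preparation 1, edgeR called 2 of the ligand-processing genes in Cd31+ wells.

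The genes whose log2(CPM + 1) followed each PDGF gene most closely over the 10 class sums with at least 5 wells were listed among the 8818 other genes with a mean of at least 10 CPM. They were Cd59a (Pearson r = 0.993), Limch1 and Spint2 for Pdgfa, St6galnac3 (0.964), 2810403A07Rik and Gbp5 for Pdgfb, and Zbtb16 (0.953), Bloc1s1 and Bri3 for Pdgfc. For Pdgfd they were Zfp40 (0.953), Alkbh8 and Smek2. For the receptors they were Wnt5a (0.973), Cd302 and Ssc5d with Pdgfra, and Fam26e (0.975), Aspn and Foxp2 with Pdgfrb. The sums share plates and preparations, and they come from 3 classes.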

How the data were processed

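Per the labels and the study's methods, the authors ran STAR 2.7.7a on the Smart-seq2 reads against GRCm38 extended by spike-in and EYFP sequences, dropped duplicates by Picard 2.22.0 and deposited whole-number counts per gene and well from HTSeq 0.9.1, without normalization. The annotation release is not given in the sources used here. Spike-in lines (1.25% of counts) and HTSeq summary lines (46.9%) were left out. The PDGF genes and all lists were chosen with earlier results of these data known.

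Counts were summed per genotype, gate and preparation, and tested with edgeR 4.0.16 (glmQLFit, TMM, filterByExpr, all genes, threshold 0.05 on the Benjamini-Hochberg adjusted p) without a block. The SE given with an edgeR estimate was derived from its test, as the absolute log2 difference divided by the square root of the F statistic. The gate comparison used all 8 samples. By the study's methods the sorts are independent experiments, and the gates of a genotype and sort come from the same aortas. After removal of group means, WT and KO samples of the same preparation correlated by 0.139 (Cd31+) and 0.0757 (Cd31-), and gates by 0.0197 to 0.0749. The alternatives were that sort as a block, RLE factors, no filter, DESeq2 1.42.0, each sample left out, wells of at least 100000 counts, wells thinned to 20000 counts, limma 3.58.1 on means over wells, each preparation alone, and rebuilt classes only. The preparations pool mice that the labels do not name, so p-values measure the spread between sorts, which may be technical. In the gate comparison each group pools WT and KO, so the spread there also holds genotype differences. Its main fit did not pair gates of the same aortas, which the block alternative did.

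Classes came from Seurat 5.3.0 (2000 variable genes without the PDGF genes, 30 dimensions, resolution 0.5, alternative 0.8). No doublet caller was run, as single cells were sorted. Shares have exact (Clopper-Pearson) 95% intervals, a 0 is given with the limit of 3 counts, and both cover counting error only. Named were all 6 genes, the label checks, up to 6 called genes per list with the largest change, and the 3 genes most like each PDGF gene, and 1 called gene of the ligand-processing list is not reported here. Ndst1, Tagln, Myl9 and the mural genes beside Pdgfrb were added after their values were seen. The test scripts were checked on simulated counts. Scripts ran in R 4.3.3 and in Python with pandas 2.3.3, numpy 2.4.6 and scipy 1.17.1.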

Additional observations from a re-analysis of the deposited data

Results flagged for a closer look

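Among 24 groups of 4 samples (6 genes, 2 gates, level and share of wells), Dixon's test at the 95% level set apart 2 values, where chance alone flags about 1 in 20 groups. Pdgfc read 11.2 CPM in the WT Cd31+ sample of preparation 1, with the other 3 Cd31+ samples at 0.088 to 1.18 CPM and 44.6% of its counts in a single well. Pdgfd was in 92.9% of the 14 wells of the KO Cd31- sample of preparation 2, with the other 3 Cd31- samples at 72.5% to 75.0% of 12 to 42 wells each.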

How the results depend on the processing

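For the gate difference 1798 to 2626 genes were called when a sample was left out, against 2214 with all samples, and both receptors were called in all 16 alternatives. It called 4 PDGF genes rather than 2 with thinned wells and with means over wells (Pdgfb and Pdgfc added), and 2 or 3 with a sample left out. With the preparation as a replicate block it called 3, Pdgfc (4.30) being added, and the block changed no other call of a PDGF gene.

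The number of genes called for KO against WT in Cd31+ wells was 0, and it was 1 with the block, 1 with RLE factors, 104 without the filter, 55 with DESeq2, 8 with thinned wells, 4 with means over wells, 1 in endothelial-like wells and 5 to 311 with a sample left out, the most without the WT sample of preparation 1. In Cd31- wells it was 0, and it was 24 without the filter, 6 with DESeq2 and 0 to 79 with a sample left out, the most without the WT sample of preparation 2. For the difference between gates it was 0, and it was 163 without the filter, 50 with DESeq2 and 0 to 42 with a sample left out (42 without the WT Cd31- sample of preparation 1), and the PDGF genes called rose from 0 to 2 without the filter and 1 with DESeq2.

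The log2 differences of KO from WT that turned sign were all uncalled. In Cd31+ wells, leaving out a sample gave -0.19 to 0.70 for Pdgfrb, -3.73 to 3.22 for Pdgfc and -0.019 to 0.83 for Pdgfd, and means over wells gave -0.24 for Pdgfb, -0.070 for Pdgfd and -0.21 for Pdgfrb. In Cd31- wells, leaving out a sample gave -0.038 to 0.34 for Pdgfrb, -0.025 to 0.84 for Pdgfa, -1.76 to 1.21 for Pdgfra and -0.98 to 0.52 for Pdgfd. There, thinning gave 0.48 for Pdgfc and -0.18 for Pdgfrb, means over wells 0.30 for Pdgfd, and smooth muscle-like wells alone -0.046 for Pdgfa. For the difference between gates, leaving out a sample gave -4.29 to 2.65 for Pdgfc, -1.35 to 0.17 for Pdgfd and -0.58 to 0.39 for Pdgfrb. The cause of these changes was not tested.

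Of 144 recomputed shares of wells, 52 fell outside the interval of the reported share, 24 of them with a minimum of 5 counts, and the class levels at resolution 0.8 all stayed within 1 SD. With 12 to 42 wells in each Cd31- sample, shares there are wide, and genes near 1 count per well, such as Pdgfc and Pdgfra in endothelial-like wells, rest on few cells.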
